A study of Mus musculus with 15 samples.

Results

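A set of 77 genes held high and steady levels in the embryonic mouse lens between embryonic days E10.5 and E16.5. A gene belonged to the set when its mean in each of the 4 lens stages was at least 10 FPKM and at least 2.5 times its mean in whole embryos, and when its highest stage mean was under 2 times its lowest. FPKM is a fragment count scaled to transcript length and library size, and a gene's value is the sum over its transcripts. Of 14615 gene symbols, 8009 reached 10 FPKM in every lens stage. Among these 8009, 168 also passed the comparison with whole embryos, and 77 of the 168 passed the limit on change between stages. The set is 0.527% of all symbols. These same lens and whole-embryo values chose the genes, so the levels, folds and stage ratios below describe the set and carry no test.

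The embryos were wild-type C57BL/6NTac mice. Each of the 4 lens stages had 3 biological replicates of dissected lenses, in pools of 50 lenses (E10.5), 29 lenses (E12.5), 18 lenses (E14.5) or 17 lenses (E16.5). The reference group, WholeBody, had 3 libraries from whole embryos of E10.5 to E12.5, and how the days were combined is not stated in the labels. A pool averages over embryos and over the epithelial and fibre cells of each lens, and the reference is younger than both later lens stages. The sequencing depth is unknown.

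The vertebrate lens forms from surface ectoderm that thickens, folds in and pinches off as a vesicle. Cells at the back of the vesicle elongate into fibre cells and fill with crystallins, while cells at the front stay as a dividing epithelium. Transcription factors that specify the lens stay active in that epithelium, and growth of the fibres needs continuous protein synthesis. FOXE3, a forkhead factor found in the lens epithelium, PAX6, the paired-box factor required for eye formation, and SIX3, a homeodomain factor of the eye and forebrain, are among the best-known regulators of these steps.

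The promoters of Foxe3 and Six3 are shown because both genes had high lens to whole-embryo ratios among the transcription factors of the set and are known regulators of the lens. The sequences are RefSeq promoters on GRCm38.p6, from 250 bases before to 50 bases after the gene start, written 5′ to 3′ on the gene's strand, with every CG dinucleotide in capitals.
Foxe3, chr4:114926018-114926317, minus strand: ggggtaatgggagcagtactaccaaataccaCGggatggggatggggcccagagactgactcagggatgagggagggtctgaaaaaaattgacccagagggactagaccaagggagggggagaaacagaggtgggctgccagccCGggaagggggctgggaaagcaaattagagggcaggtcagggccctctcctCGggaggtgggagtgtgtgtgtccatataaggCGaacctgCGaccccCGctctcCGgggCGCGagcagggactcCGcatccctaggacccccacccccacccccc
Six3, chr17:85620584-85620883, plus strand: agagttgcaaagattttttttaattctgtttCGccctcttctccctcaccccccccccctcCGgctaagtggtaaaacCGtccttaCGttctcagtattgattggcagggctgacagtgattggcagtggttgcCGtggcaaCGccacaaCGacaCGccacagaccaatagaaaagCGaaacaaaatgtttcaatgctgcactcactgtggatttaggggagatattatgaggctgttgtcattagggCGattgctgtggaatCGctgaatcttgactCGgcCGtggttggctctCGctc
The CG dinucleotide was found 10 times in the Foxe3 window and 14 times in the Six3 window. A promoter was found for 63 of the 77 genes. Their median was 18 CG dinucleotides and 59.3% G or C, against 23 and 62.0% in 6240 genes that reached 10 FPKM in every lens stage and 7 and 52.7% in all 27025 genes with a promoter. The members were thus CG-rich beside all genes and slightly below the other genes of that lens level.

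Short motifs were searched on both strands of the same 300 bases. The GC box GGGCGG was found in 33 of the 63 promoters (52.4%), against 69.2% of the genes at 10 FPKM and 35.9% of all promoters. CCAAT was found in 21 (33.3%), against 39.3% and 37.9%. TATAAA was found in 6 (9.52%), against 5.79% and 14.2%, and 2 of these 6 were ribosomal protein genes. Another pair of the 6, Gm28042 and Jmjd7, have the same window and are counted as 2. The homeodomain core TAATTA was found in none, against 2.02% and 5.31%. The SOX core AACAAT was found in 5 (7.94%), against 5.30% and 10.9%, and the MAF core TGCTGAC in 2 (3.17%), against 3.11% and 4.58%. The letters TTCACGC, which are part of the PAX6 paired-domain motif, were found in 2 (3.17%), against 2.13% and 1.30%. These 2 are Fv1 and Miip, whose windows share 241 bases and hold the same single site. The ETS core CCGGAAGT was found in 3 (4.76%), all ribosomal protein genes, against 10.9% and 4.0%. The Six3 window holds CCAAT, and the Foxe3 window holds none of these motifs. These matches are letters in a window and say nothing of binding.

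**Figure D1:**
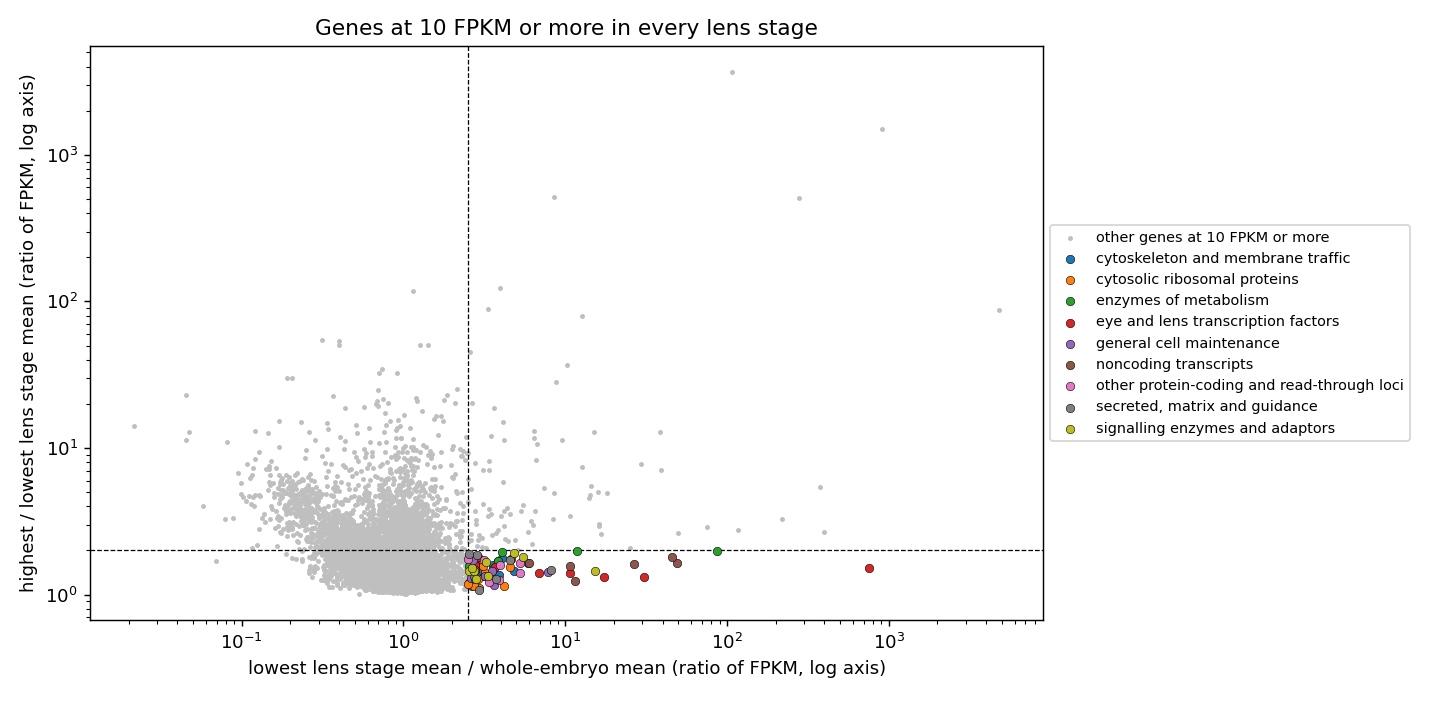
Each point is 1 of 8007 genes at 10 FPKM or more in every lens stage (2 genes listed at 0 in every whole-embryo library are not drawn). The x axis is the lowest lens stage mean over the whole-embryo mean and the y axis the highest over the lowest lens stage mean, both log axes; dashed lines mark 2.5 and 2, and the 77 coloured genes lie right of the first and below the second.

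Within the set the lens mean ran from 10.8 FPKM (Tmem150a) to 2606 FPKM (Hspa8), with a median of 55.4. The ratio of the lens mean to the whole-embryo mean ran from 2.70 (Rps29) to 972 (Foxe3), with a median of 4.47. It was at least 10 in 13 genes, between 5 and 10 in 17 and under 5 in 47. The ratio of the highest to the lowest stage mean ran from 1.08 (Sema4d) to 1.99 (Ggt1). Its median was 1.46, against 1.55 over all 8009 genes at 10 FPKM, and 71.9% of those genes were also under 2. Low change between stages was therefore the common state at this level, and the comparison with whole embryos, passed by 2.10%, was the narrow part of the rule. All 12 lens libraries lay above all 3 whole-embryo libraries for every one of the 77 genes, a pattern seen in 21.5% of the 8009, and nothing is read from it because the rule selects for it. No member was listed at 0 in any library.

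Steady did not mean identical in every stage. The spread between stage means, as an SD of log2 values, was above the spread within stages in 56 of the 77 genes. The lowest stage was E10.5 in 43 genes, E12.5 in 19, E14.5 in 5 and E16.5 in 10. The highest was E14.5 in 28, E16.5 in 23, E10.5 in 16 and E12.5 in 10. The same counts were not made over all genes at 10 FPKM, so they are not read as particular to the set. Of the 91 genes that passed the whole-embryo comparison but not the limit on change, 62 were highest at E16.5 and 79 were lowest at E10.5. Together the 77 genes contributed 2.56% ± 0.0727 of all FPKM in the E10.5 lens, 2.21% ± 0.155 in the E12.5 lens, 1.85% ± 0.114 in the E14.5 lens and 1.60% ± 0.0935 in the E16.5 lens, against 0.784% ± 0.0415 in whole embryos (SD, n = 3). Their summed FPKM was nevertheless higher at E16.5 (24450 ± 642) than at E10.5 (19150 ± 1225), since the total of all FPKM also differed.

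The thresholds divide a continuum. The level threshold left Tmem150a inside at 10.003 FPKM and Spag1 outside at 9.78. The whole-embryo threshold left Rps29 inside at 2.51 times and Rps27a, another ribosomal protein gene, outside at 2.495 times. The stage threshold left Ggt1 inside at 1.99 and Col13a1 outside at 2.01.

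The deposited FPKM totals differed with crystallin content. Crystallins were 0.0463% to 0.0669% of the summed FPKM in the E10.5 libraries and 28.2% to 37.3% at E16.5, and the summed FPKM ran from 707562 in a whole-embryo library to 1629915 at E16.5. The summed level of 16 crystallins, the defining lens markers, was 355 to 477 FPKM at E10.5 and 399660 to 607080 at E16.5, with 7.54 to 8.39 in whole embryos. The order of the stages depended on how libraries were scaled to each other. In the deposited values E16.5 was above E10.5 in 53 of the 77 genes, against 56.4% of all genes at 10 FPKM. It was above in 23 of the 77 after crystallins were removed and totals equalised, in 32 after quantile normalization and in 52 with median-of-ratios size factors. The first of these lowered the median of all genes at E16.5 by -0.26 on the log2 scale. As deposited, the median log2 ratio of E16.5 to E10.5 was 0.317 in the 77 genes and 0.133 in all genes at 10 FPKM. It was -0.159 and -0.346 with crystallins removed, -0.122 and -0.055 after quantile normalization and 0.2655 and 0.0785 with median-of-ratios factors. Over the 4 scalings, E16.5 was above E10.5 each time in 19 genes (among them Gata3, Etv1, Etv5, Ablim1, Plekhg1, Ppm1h and Lgmn) and below each time in 23 (among them Pax6, Six3, Six3os1, Mab21l1, Dmrta2, Myb and Mfge8), and the sign differed in 35. Pax6 stayed within 2 times between stages with crystallins removed (1.97) but not after quantile normalization (2.16), Myb the reverse (2.21 and 1.68), and Mab21l1 in neither (2.19 and 2.04). The median lens to whole-embryo ratio of the 77 genes moved as well. It was 4.47 as deposited, 3.61 with crystallins removed, 5.22 after quantile normalization and 4.42 with median-of-ratios factors. Unless stated otherwise, every stage order and ratio below is that of the deposited values.

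Markers of other cells differed between stages and between E10.5 libraries. The summed level of 12 macrophage markers was 147 to 180 FPKM at E10.5 and 6.54 to 18.9 at E16.5, while that of 9 muscle markers was 3.79 to 10.7 at E10.5 and 24.1 to 28.0 at E16.5. The mean log2(FPKM + 1) of the same muscle markers overlapped, at 0.461 to 1.03 (E10.5) and 0.837 to 0.985 (E16.5). The sum of 11 surface and corneal epithelium markers was 356 to 462 FPKM at E10.5 and 2.07 to 4.48 at E16.5. That of 10 endothelium markers was 568 to 638 at E10.5 and 103 to 166 at E16.5. In whole embryos these sums were 147 to 150 and 312 to 318 FPKM, and the macrophage sum was 43.1 to 47.2. Pigment cell markers overlapped between E10.5 and E16.5, at 25.3 to 82.9 and 34.0 to 46.0 FPKM. The 6 liver markers summed to 485 and 878 FPKM in replicates 1 and 3 of E10.5 and to 12.9 in replicate 2, and 11 mesenchyme markers to 2780 in replicate 3 and 402 and 396 in the other two. The part of all these other cells in the E10.5 levels was not tested. In a comparison chosen after seeing the data, E10.5 was the lowest stage in 37, 46 and 42 of the 77 genes without its replicates 1, 2 and 3, and the highest stage in 13, 19 and 16.

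Transcription factors and nuclear regulators of the eye and lens made up 10 genes of the set, among them the gene with the highest ratio to whole embryos. Foxe3 gave 321, 315 and 269 FPKM in the E10.5 libraries, 345, 451 and 393 in those of E12.5, 399, 409 and 570 in those of E14.5 and 375, 356 and 423 in those of E16.5. In whole embryos it was measured at 0.48, 0.44 and 0.27. Every lens library was above 250 FPKM while the whole-embryo libraries lay below 1, the E10.5 libraries lay below the E12.5 libraries, and the 3 later stages overlapped. Its stage means differed by 1.52 times.

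Pax6 gave 455, 450 and 444 FPKM in the E10.5 libraries, 378, 383 and 352 in those of E12.5, 324, 304 and 332 in those of E14.5 and 330, 303 and 322 in those of E16.5, against 30.2, 28.8 and 30.7 in whole embryos. Its 3 replicates were the tightest of the set, with a within-stage SD of 0.0562 on the log2 scale. The E10.5 libraries lay above the E12.5 libraries and these above E14.5, while E14.5 and E16.5 overlapped.

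Six3 gave 125, 130 and 139 FPKM in the E10.5 libraries, 85.8, 109 and 106 in those of E12.5, 116, 123 and 122 in those of E14.5 and 110, 126 and 120 in those of E16.5, against 6.48, 5.37 and 5.45 in whole embryos. E12.5 was the lowest stage, and its highest library lay just below the lowest library of E16.5. Dmrta2, a doublesex-related factor known from forebrain development, was likewise highest at E10.5 (53.1 ± 4.76 FPKM) and lowest at E12.5 (37.7 ± 8.51), against 5.49 ± 1.33 in whole embryos (SD, n = 3).

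Neural retina, the tissue next to the lens, also uses Pax6 and Six3, and the summed level of its markers was highest in the youngest lens samples. The summed level of 11 retina markers was 229 to 342 FPKM (E10.5), then 63.5 to 160 (E12.5), 18.2 to 19.6 (E14.5) and finally 27.4 to 44.1 (E16.5), with 187 to 212 in whole embryos. Not every marker had this order. Atoh7 and Isl1 had their highest lens means at E12.5 (3.90 and 4.4 FPKM), Neurod1 at E14.5 (0.197) and Hes5 at E16.5 (7.44). Crx and Isl1, both in the list, were listed at 0 in every E14.5 and E16.5 library, and Atoh7 in every E10.5 library. At E14.5 the means of 10 of the 11 markers were below 5 FPKM. The E14.5 means of Pax6 and Six3 were 320 ± 14.3 and 120 ± 3.88 FPKM (SD, n = 3). The part of retina RNA in the levels of Pax6, Six3 and Dmrta2 was not tested at E10.5 or at any later stage. In pooled tissue, more cells of a type and more RNA per cell cannot be told apart.

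Hmx1, a homeobox gene of the eye and ear, gave 100, 105 and 113 FPKM in the E10.5 libraries, 124, 144 and 141 in those of E12.5, 131, 132 and 154 in those of E14.5 and 133, 137 and 144 in those of E16.5. The 3 later stages overlapped, E10.5 lay below all of them, and whole embryos were at 3.91, 2.97 and 3.44. Mab21l1, a gene required for lens formation in the mouse, had its highest mean at E12.5 (157 ± 23.6 FPKM) and its lowest at E16.5 (90.2 ± 4.83), against 19.5 ± 0.248 in whole embryos. Gata3, a zinc finger factor of differentiating lens fibres, was at 22.2 ± 3.11 FPKM at E10.5 and between 37.8 and 40.0 at the later stages, against 7.74 ± 0.531 (SD, n = 3).

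Etv1 and Etv5 encode ETS factors that are known targets of FGF signalling, the main inducer of fibre differentiation. Etv5 was at 127 ± 4.12 FPKM (E10.5), then 132 ± 22.5 (E12.5), 197 ± 25.3 (E14.5) and finally 208 ± 16.0 (E16.5), against 45.9 ± 1.45 in whole embryos. Etv1 was at 49.5 ± 5.07, 56.9 ± 10.7, 76.3 ± 5.42 and 69.1 ± 2.99 FPKM, against 13.4 ± 0.428 (SD, n = 3). For both genes the E10.5 and E12.5 libraries overlapped. The E14.5 and E16.5 libraries overlapped for Etv5, while those of Etv1 were slightly higher at E14.5 (73.0, 82.5 and 73.3 FPKM) than at E16.5 (66.9, 67.9 and 72.5). The Etv1 to Etv5 ratio was 0.389 ± 0.0330 (E10.5), then 0.430 ± 0.00920 (E12.5), 0.390 ± 0.0291 (E14.5) and finally 0.334 ± 0.0304 (E16.5), with 0.293 ± 0.00164 in whole embryos. Myb, a proto-oncogene of dividing progenitors, was at 38.5 ± 6.55 FPKM (E10.5), then 33.0 ± 4.79 (E12.5), 35.7 ± 6.14 (E14.5) and finally 24.4 ± 0.619 (E16.5), with 8.82 ± 0.335 in whole embryos. Myb is also used by blood progenitors, and the summed level of 11 erythroid markers was 2229 to 5108 FPKM (E10.5), then 3731 to 8221 (E12.5), 452 to 973 (E14.5) and finally 349 to 675 (E16.5), with 7584 to 9699 in whole embryos. The erythroid sum was thus highest among the lens stages at E12.5 and Myb at E10.5. The part of blood RNA in the Myb level was not tested.

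**Figure D2:**
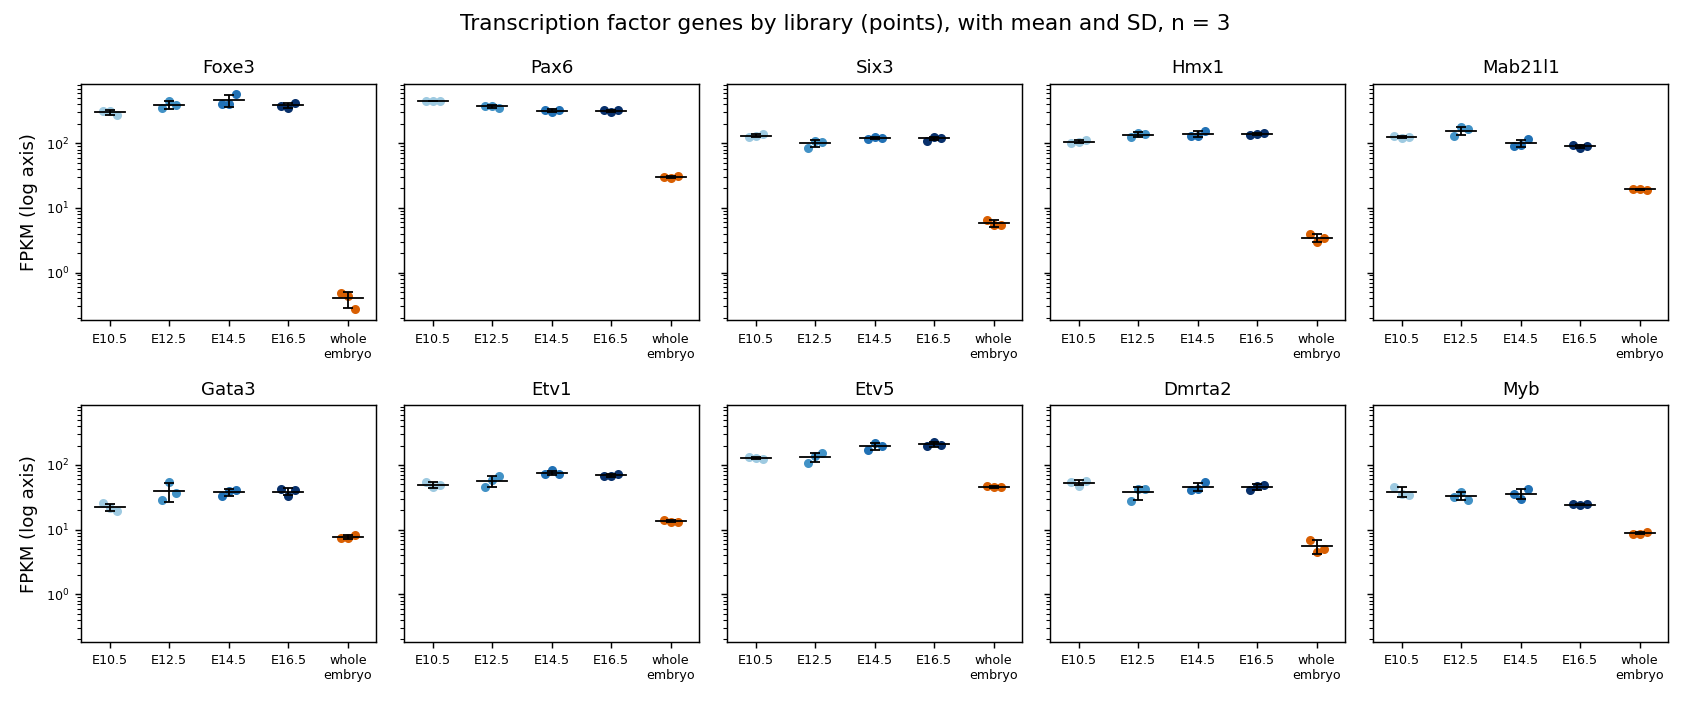
FPKM (log axis, shared by all panels) of the 10 transcription factor genes in each library, with 3 points a group, the mean and its SD. Foxe3 lies above 250 FPKM in all lens libraries and below 1 in all whole-embryo libraries, while Etv5 has the smallest gap between lens and whole embryo.

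Of a list of 23 lens transcription factors, 18 reached 10 FPKM in every stage, 10 passed the whole-embryo comparison and 7 belonged to the set (Pax6, Foxe3, Six3, Gata3, Mab21l1, Etv5 and Hmx1). Of 12 lens epithelium genes 2 did so (Foxe3 and Pax6), and of 47 cataract-linked genes outside the crystallins 2 did so (Foxe3 and P3h2). Of 16 FGF pathway genes 2 did so (Etv1 and Etv5), of 19 basement membrane genes 1 (Lamb1) and of 18 glycolysis genes 1 (Gapdh). None of 16 crystallins and none of 16 fibre membrane and cytoskeleton genes did so, while 6 crystallins passed both other conditions. Over all symbols 0.527% belonged to the set.

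Of the 77 members 7 are noncoding, and 3 of these lie beside a transcription factor of the set. Six3os1 runs on the strand opposite to Six3 and overlaps it on chromosome 17. It gave 482, 374 and 364 FPKM in the E10.5 libraries, 237, 260 and 262 in those of E12.5, 315, 290 and 292 in those of E14.5 and 357, 330 and 318 in those of E16.5, against 10.2, 8.07 and 10.3 in whole embryos. Like Six3 it was highest at E10.5 and lowest at E12.5. The level of Six3os1, which is scaled to length, was 2.49 to 3.12 times that of Six3 in the stage means and 1.65 ± 0.204 times in whole embryos (SD, n = 3). Dmrta2os starts 240 bases from Dmrta2 on the other strand of chromosome 4 in GENCODE vM21, while its RefSeq start lies within Dmrta2, so reads of this pair may also have been mixed. It was at 16.9 ± 2.40 FPKM at E10.5 and 26.3 ± 1.03 at E16.5, against 1.57 ± 0.318, and its ratio to Dmrta2 was 0.320 ± 0.0554 at E10.5 and 0.578 ± 0.0789 at E16.5. The stage order of Dmrta2os thus differed from that of Dmrta2, which was highest at E10.5.

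The third, 4930442P19Rik, lies within Hmx1 on the other strand. It gave 18.8, 12.4 and 8.48 FPKM in the E10.5 libraries, 19.1, 22.7 and 23.0 in those of E12.5, 19.02, 16.8 and 19.2 in those of E14.5 and 14.2, 15.9 and 18.0 in those of E16.5, against 0.34, 0.28 and 0.19 in whole embryos. Replicate 1 of E10.5 lay within the range of the later stages and the other two lay below it. In addition, 2 transcripts of class x, an assembly class for exons overlapped on the opposite strand, were kept out of the Hmx1 sum. They summed to 7.60 ± 1.85 FPKM at E10.5 and 52.8 ± 10.6 at E16.5, beside 0.513 ± 0.120 in whole embryos (SD, n = 3). The kit is not stated to mark strand, so reads of a gene and of its partner on the other strand may have been mixed. In all, 34 of the 77 genes overlap a gene on the opposite strand and 24 a gene on the same strand in GENCODE vM21. These counts include small RNA and pseudogene records. The share of all genes with such overlaps was not counted, so they are not read as particular to the set.

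**Figure D3:**
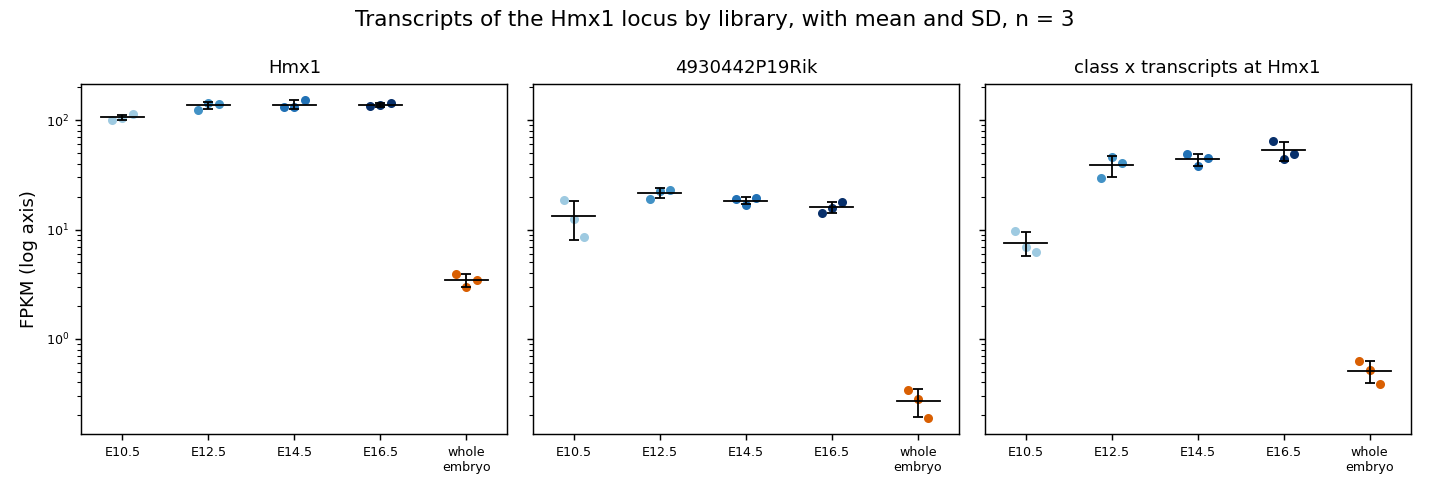
FPKM (log axis, shared by the panels) in each library of the Hmx1 gene sum, of 4930442P19Rik and of the class x transcripts at Hmx1, with 3 points a group, the mean and its SD. Hmx1 lies between 100 and 154 FPKM in all lens libraries, while the class x transcripts lie between 6.23 and 9.71 at E10.5 and between 29.3 and 64.8 in the later lens libraries.

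The row named Mir31 is an assembled transcript of 740 bases that covers the miR-31 hairpin at chr4:88910557-88910662. It was at 15.4 ± 8.01 FPKM (E10.5), then 17.7 ± 4.73 (E12.5), 25.3 ± 4.83 (E14.5) and finally 28.0 ± 4.15 (E16.5), against 0.337 ± 0.156 in whole embryos (SD, n = 3). At E10.5 the libraries ran from 9.99 to 24.6 FPKM, so that stage overlapped all others. The same interval lies within the long noncoding RNA AL805899.1. The mature RNAs were not measured, and their RefSeq sequences are shown, with the seed (bases 2 to 8) in capitals, to identify the locus.
mmu-miR-31-5p: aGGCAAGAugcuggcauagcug
mmu-miR-31-3p: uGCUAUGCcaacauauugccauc
The seeds of both arms differ. RP23-110C17.2, named AI506816 in GENCODE vM21, was at 219 ± 5.16 FPKM (E10.5), then 237 ± 25.8 (E12.5), 304 ± 19.3 (E14.5) and finally 322 ± 14.9 (E16.5), against 79.4 ± 3.97 in whole embryos (SD, n = 3). The remaining noncoding members, 2610507I01Rik and 4930578M01Rik, had lens means of 16.9 and 15.9 FPKM and were 12.7 and 8.29 times the whole-embryo mean.

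The largest group in the set was the cytosolic ribosomal proteins, with 16 genes. Ribosomal proteins form both subunits of the ribosome together with ribosomal RNA. Rps2, of the small subunit, gave 989, 1148 and 1096 FPKM in the E10.5 libraries, 1054, 1138 and 1084 in those of E12.5, 1160, 1176 and 1336 in those of E14.5 and 1100, 1194 and 1190 in those of E16.5, against 292, 232 and 247 in whole embryos. The E14.5 libraries lay just above those of both earlier stages, and E16.5 overlapped every other stage. Rps24 had the highest lens mean of the group (1351 FPKM), with 1107 ± 80.3 FPKM at E10.5 and 1603 ± 279 at E14.5, against 416 ± 63.0. Rpl29, of the large subunit, had the highest ratio to whole embryos (6.05), with 366 ± 26.6 FPKM at E10.5, 563 ± 25.1 at E16.5 and 80.0 ± 9.12 in whole embryos (SD, n = 3). The lowest ratio was that of Rps29 (2.70).

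The ratio of the highest to the lowest stage mean ran from 1.11 (Rps19) to 1.69 (Rpl35a) in these 16 genes. The lowest stage was E10.5 in 14 of them, and the highest was E14.5 in 12 and E16.5 in 4. E16.5 was above E10.5 in 15 of the 16 in the deposited values and with median-of-ratios factors, but in 4 with crystallins removed and in 2 after quantile normalization. All 16 stayed under 2 times between stages in each of these scalings, but not all stayed in the set. Rpl12, Rpl26, Rpl34, Rpl7a, Rps19, Rps23, Rps24 and Rps29 left it with crystallins removed and after quantile normalization. Rpl5 left it after quantile normalization only, and Rps29 also with median-of-ratios factors. At E14.5 replicate 1 was the highest of the 3 libraries for Rps24 (1918, 1387 and 1503 FPKM), Rpl12 (1278, 869 and 994) and Rpl35a (699, 482 and 518). The E14.5 means of these genes thus carry a wide error.

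The 16 genes were not set apart from the other ribosomal protein genes by a gap. All 75 cytosolic ribosomal protein symbols reached 10 FPKM in every stage, all 75 were above the whole-embryo mean in every stage and all 75 changed less than 2 times between stages. Their median lens to whole-embryo ratio was 2.49, and exactly the 16 members passed 2.5 times in every stage. Ribosomal protein genes have many near-identical copies in the genome, so their counts may be split among copies and are uncertain.

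Genes at 10 FPKM in every lens stage had higher lens to whole-embryo ratios when their main transcript was short. The ribosomal protein genes were part of this comparison and were not left out of it. Among genes at 10 FPKM whose main transcript was under 600 bases, the median lens to whole-embryo ratio was 1.91 and 5.43% of 129 belonged to the set. These 7 members were all ribosomal protein genes. Among those of 4000 bases or more the median was 0.955 and 0.751% of 2796 belonged. The main transcripts of the 16 ribosomal members were 390 to 2045 bases long, and those of the other members had a median of 2922 bases against 3091 over all genes at 10 FPKM. The part of transcript length in the ribosomal ratios was not tested.

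**Figure D4:**
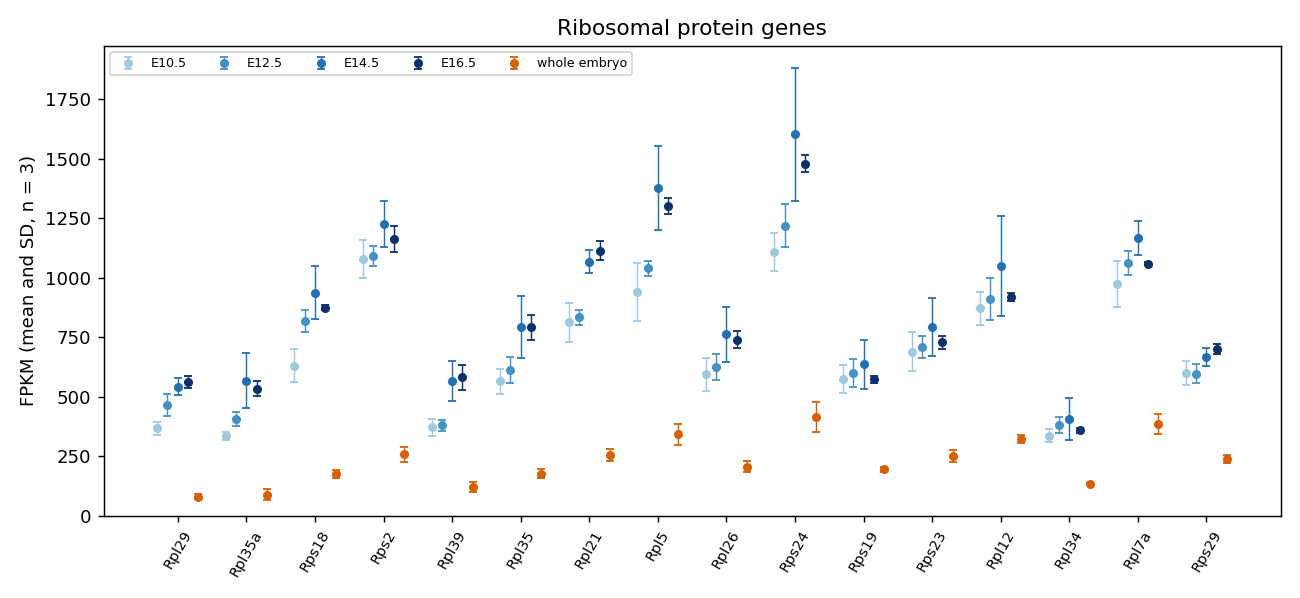
Mean FPKM with SD (n = 3) of the 16 ribosomal protein genes in each lens stage and in whole embryos, ordered by the lens to whole-embryo ratio. The whole-embryo mean is the lowest of the 5 for every gene, and Rps24 at E14.5 (1603 ± 279) has the highest mean.

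General maintenance genes supplied the 2 highest levels of the set. Hspa8, the constitutive HSP70 chaperone, gave 1868, 2262 and 2219 FPKM in the E10.5 libraries, 2389, 2423 and 2254 in those of E12.5, 2698, 3104 and 3323 in those of E14.5 and 2741, 3102 and 2890 in those of E16.5, against 676, 558 and 560 in whole embryos. Every library of both later stages lay above every library of both earlier ones in the deposited values. The ratio of its highest to its lowest stage mean was 1.44, was 1.11 with crystallins removed and was 5.59 after quantile normalization. Gapdh, a glycolytic enzyme often used as a reference gene, was at 1727 ± 93.9 FPKM (E10.5), then 1682 ± 141 (E12.5), 2518 ± 296 (E14.5) and finally 2888 ± 95.1 (E16.5), against 627 ± 30.1 (SD, n = 3). Its stage means differed by 1.72 times and its lens mean was 3.51 times the whole-embryo mean. Gapdh and Hspa8 also have near copies in the genome and their values are uncertain for that reason. Taf9 and Med10, subunits of the transcription machinery, had lens means of 25.3 and 12.5 FPKM, and Jmjd7, a hydroxylase, 11.1.

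Another 8 genes encode secreted, matrix or guidance proteins. Sema4d, a membrane-bound semaphorin, was the flattest gene of the set. It gave 37.7, 36.6 and 40.4 FPKM in the E10.5 libraries, 37.7, 39.3 and 42.4 in those of E12.5, 40.3, 45.6 and 35.2 in those of E14.5 and 38.2, 37.2 and 36.7 in those of E16.5, against 14.2, 12.5 and 11.8 in whole embryos. All 4 stages overlapped. Sema3a, a secreted semaphorin that repels axons, was at 148 ± 13.3 FPKM at E10.5 and 198 ± 16.9 at E14.5, against 54.2 ± 2.97 in whole embryos. Lamb1, a laminin chain of basement membranes such as the lens capsule, was at 310 ± 30.1 FPKM at E10.5 and 397 ± 40.3 at E16.5, against 112 ± 4.80. P3h2, which hydroxylates prolines in basement membrane collagen and is linked to human cataract, was at 133 ± 5.52 FPKM (E10.5), then 96.2 ± 12.7 (E12.5), 141 ± 9.71 (E14.5) and finally 140 ± 15.3 (E16.5), against 11.7 ± 0.894 (SD, n = 3). Its E12.5 libraries lay below those of all other stages.

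Mfge8, a secreted protein that bridges dying cells to phagocytes, was at 212 ± 11.5 FPKM at E10.5, 165 ± 12.5 in the E14.5 lens and 197 ± 3.72 in the E16.5 lens, with 44.1 ± 1.01 in whole embryos. Lgmn, a lysosomal protease, was near the stage limit at 1.89 times, with 81.1 ± 10.6 FPKM at E10.5 and 153 ± 20.9 at E16.5. Lgmn is also abundant in macrophages, whose summed marker level is given above, and their part in its level was not tested. Tenm2, a teneurin adhesion protein, scattered widely at E10.5 (28.6, 36.5 and 48.2 FPKM), and Spon2, a matrix protein, was highest at E12.5 (19.5 ± 1.10) against 2.51 ± 0.142 in whole embryos (SD, n = 3).

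The 5 metabolic enzymes were the least steady group, with a median stage ratio of 1.95. Aldh1a7, an aldehyde dehydrogenase, gave 140, 193 and 197 FPKM in the E10.5 libraries, 113, 116 and 128 in those of E12.5, 201, 213 and 246 in those of E14.5 and 231, 209 and 266 in those of E16.5, against 1.12, 1.20 and 1.78 in whole embryos. Its E12.5 libraries were the lowest, its lens mean was 137 times the whole-embryo mean, and it is close in sequence to Aldh1a1, so reads may have been shared between them. Ggt1, which breaks down extracellular glutathione, was at 18.9 ± 4.34 FPKM at E10.5, 11.4 ± 2.20 at E12.5 and 22.8 ± 3.94 at E16.5, against 0.960 ± 0.276. Akr1e1, an aldo-keto reductase, was at 25.3 ± 3.94 FPKM at E10.5 and 49.3 ± 4.46 at E16.5, against 6.19 ± 0.566 (SD, n = 3). Mri1, an enzyme of methionine salvage, and Acaa1a, a peroxisomal thiolase, had lens means of 37.6 and 35.3 FPKM, 5.34 and 3.19 times the whole-embryo mean.

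Among signalling genes, Plekhg1, a guanine nucleotide exchange factor, had the highest lens mean (242 FPKM). It was at 158 ± 5.64 FPKM (E10.5), then 243 ± 41.9 (E12.5), 287 ± 22.8 (E14.5) and finally 282 ± 24.2 (E16.5), against 28.9 ± 1.13 in whole embryos. Camk1d, a calcium/calmodulin-dependent kinase, was at 50.7 ± 2.44 FPKM at E10.5 and 73.6 ± 13 at E16.5, against 3.30 ± 0.233, a lens mean 18.1 times higher. Ppm1h, a protein phosphatase, was at 28.2 ± 2.90 FPKM at E10.5 and 54.5 ± 2.79 at E16.5, against 5.84 ± 0.440 (SD, n = 3). The other 6 (Miip, Pip5k1b, Ulk3, Parp4, Edaradd and Btg3) had lens means from 11.8 to 35.6 FPKM. Edaradd, the adaptor of the ectodysplasin receptor, was lowest at E16.5 (12.2 ± 1.19 FPKM) and highest at E12.5 (20.4 ± 3.52).

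The set holds 9 genes that act in the cytoskeleton or in membrane traffic. Ablim1, an actin-binding LIM protein, was at 151 ± 0.794 FPKM at E10.5 and at 268 ± 50.1, 256 ± 24.5 and 247 ± 5.67 in the later stages, against 37.3 ± 2.03. Stx3, a syntaxin of membrane fusion, was at 38.5 ± 2.37 FPKM at E10.5 and 61.1 ± 5.41 at E14.5, against 10.8 ± 1.20, and Tpd52, a vesicle traffic protein, was at 68.0 ± 6.72 FPKM at E10.5 and 95.5 ± 3.08 at E16.5, against 21.6 ± 0.846 (SD, n = 3). Myo7a, an unconventional myosin, averaged 24.4 FPKM in lens. Tspan15, Ttc7, Tmem37, Bzrap1 (Tspoap1 in GENCODE) and Tmem150a had lens means from 10.8 to 26.8 FPKM. The last 7 genes are other protein-coding loci with lens means from 14.2 to 55.4 FPKM. Some of these span neighbouring genes: Gm28042 covers Jmjd7 and Pla2g4b, and Gm20431 covers Ube2v1 and Tmem189. Their fragments can belong to either, and Gm28042 and Jmjd7, both in the set, overlap on the same strand. Fv1 and Miip, also both in the set, lie 163 bases apart on opposite strands.

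A steady gene sum can hide a change among a gene's transcripts, and this was tested with a measure the rule did not use directly. For each gene with at least 2 transcripts and at least 5 FPKM in each group, the transcript with the most FPKM over all 15 libraries was taken as the main one. Its share was compared as log2((main + 1) / (rest + 1)) with limma over 7791 genes. A first test covered the 4 lens stages and a second compared the mean of the lens stages with whole embryos. Calls are at a Benjamini-Hochberg adjusted p under 0.05 over all 7791 genes, with 10 residual degrees of freedom. Cufflinks estimates how fragments divide among overlapping transcripts, and the error of that division is not in the table. The count of calls among members is not independent of the rule, because a higher main transcript lifts the gene sum and the share together, and 12 of the 15 libraries that chose the main transcript were lens.

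Over the lens stages the share changed in 8 of the 48 members tested (16.7%), against 12.2% of all genes. Calls were more frequent at high levels. Among genes with a lens mean of at least 100 FPKM, 19.6% were called, and 7 of the 28 members tested at that level. With the 12 lens libraries alone and the filter applied to the lens stages only, 8 of 65 members were called (12.3%), against 8.2% of the genes in that fit, and all 8 were the same genes. The largest change was in Ablim1. A variant near ENSMUST00000079360 was listed at 0, 0 and 0.01 FPKM in the E10.5 libraries, 109, 135 and 170 in those of E12.5, 133, 213 and 121 in those of E14.5 and 111, 128 and 147 in those of E16.5, and at 0 in all whole-embryo libraries. The transcript that matches ENSMUST00000111529 was at 124, 112 and 113 FPKM at E10.5 and at 50.0, 69.0 and 41.3 at E16.5. The share of the variant rose from 0.00219% at E10.5 to 51.3% ± 2.46 (E12.5), 59.9% ± 13.2 (E14.5) and finally 52.1% ± 6.56 (E16.5) (SD, n = 3; adjusted p = 1.14e-06). All lens libraries from E12.5 onward carried the variant and none at E10.5 did above 0.01 FPKM.

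In Etv5 the main transcript, ENSMUST00000079601, held 100% of the gene in all E10.5 libraries and 83.4% ± 2.44, 82.3% ± 5.50 and 85.9% ± 3.71 in the later stages (adjusted p = 0.00104). One variant near the same transcript was at 0 in all E10.5 libraries, at 4.41, 5.72 and 10.98 FPKM in those of E12.5, 22.7, 32.9 and 0 in those of E14.5 and 19.4, 38.2 and 27.9 in those of E16.5. Another variant gave values of 15.4, 10.2 and 15.6 FPKM in those of E12.5, 1.99, 0.01 and 42.7 in those of E14.5 and at most 0.03 at E16.5. Replicate 3 of E14.5 thus had the second variant and not the first. Tpd52 had its main transcript, ENSMUST00000091354, at 53.9% ± 1.57 of the gene (E10.5), then 44.5% ± 1.26 (E12.5), 35.2% ± 2.79 (E14.5) and finally 34.5% ± 1.67 (E16.5) (adjusted p = 0.00334). That transcript itself was at 25.9 to 42.1 FPKM in all lens libraries, while ENSMUST00000091355 was at 4.49, 4.63 and 5.77 FPKM at E10.5 and at 20.8, 23.5 and 16.6 at E16.5.

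Among the ribosomal genes, the main Rpl35 transcript went from 71.5% ± 5.37 of the gene at E10.5 to 45.3% ± 1.80 at E16.5 (adjusted p = 0.00282). The main Rps24 transcript went from 87.0% ± 0.369 to 94.4% ± 0.383 (adjusted p = 0.00136) and that of Rpl7a from 94.1% ± 0.555 to 96.9% ± 0.191 (adjusted p = 0.0127). The main transcript of RP23-110C17.2 went from 66.9% ± 2.93 to 87.4% ± 1.27 (adjusted p = 0.000491; SD, n = 3). The Six3 transcript ENSMUST00000175898 held 59.9% ± 4.86 at E10.5 and 43.9% ± 1.99, 43.0% ± 3.0 and 45.8% ± 1.09 later (adjusted p = 0.0195). The Six3 call was lost without E10.5 replicate 1 (adjusted p = 0.0773) or replicate 3 (adjusted p = 0.0852), and the Rpl7a call without E10.5 replicate 1 (adjusted p = 0.0569).

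**Figure D5:**
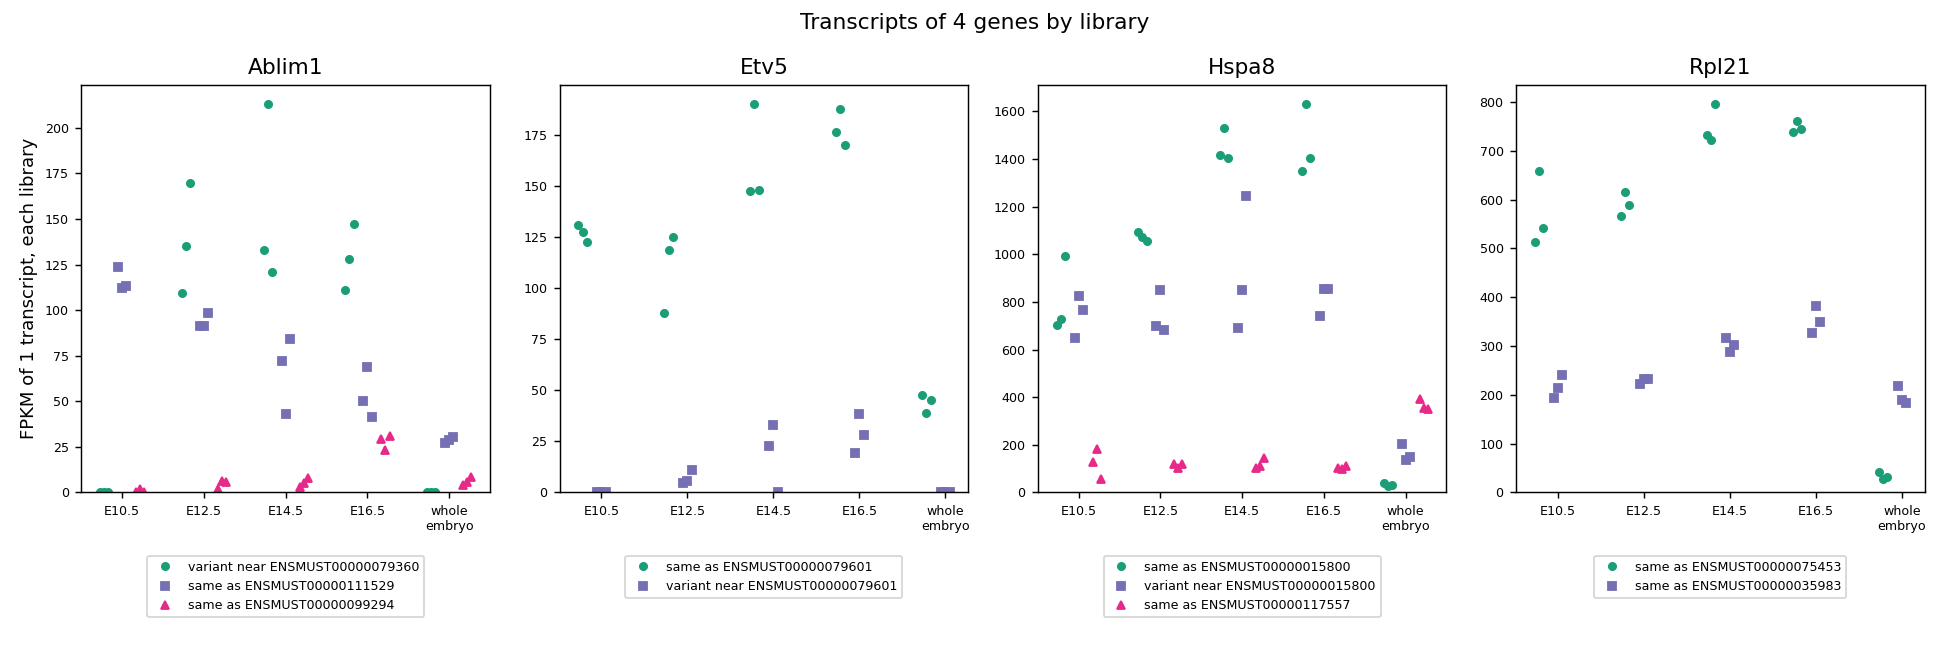
FPKM of single transcripts of Ablim1, Etv5, Hspa8 and Rpl21 in each library, with 3 points a group; legends give the reference transcript each one matches or lies nearest to. The Ablim1 variant is at or near 0 at E10.5 and in whole embryos and at 109 to 213 FPKM in the later lens libraries, and the Hspa8 and Rpl21 main transcripts are below 50 FPKM in whole embryos.

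Between lens and whole embryos the main share differed in 26 of the 48 members (54.2%), against 26.2% of all genes. At a lens mean of at least 100 FPKM it differed in 18 of 28 members, against 39.5% of genes. From 10 to 100 FPKM it differed in 8 of 20 members, against 23.1%. The main share was higher in lens in 21 members (13.5% of all genes were called in this direction) and lower in 5 (12.7%). With the main transcript picked by equal weight of lens and whole embryo, 26 members were also called, 13 higher and 13 lower, so the split of 21 to 5 depended on how that transcript was picked. The direction of Akr1e1 and Ppm1h depended on the added constant and is not read.

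Rpl21 was among the members with a higher main share in lens. Its transcript ENSMUST00000075453 was at 514 to 797 FPKM in the lens libraries and at 42.2, 27.2 and 32.3 in whole embryos, while ENSMUST00000035983 was at 193 to 382 in lens and 219, 190 and 184 in whole embryos. The share of the first was 67.3% to 70.8% in the lens stage means and 13.3% ± 1.80 in whole embryos (adjusted p = 2.20e-09). Hspa8 had 2 transcripts with opposite orders. ENSMUST00000015800 was at 703 to 1631 FPKM in the lens libraries and at 39.2, 26.3 and 30.1 in whole embryos, whereas ENSMUST00000117557 was at 57.1 to 181 in lens and at 394, 354 and 349 in whole embryos. The share of the first was 38.2% to 50.1% in the lens stage means and 5.30% ± 0.543 in whole embryos (adjusted p = 5.37e-08).

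RP23-110C17.2 also used different transcripts in the 2 tissues. The one matching ENSMUST00000199941 was at 138 to 294 FPKM in lens and 7.03 to 8.24 in whole embryos, and a longer variant of it was at 65.4 to 74.9 FPKM in whole embryos and at 0 to 0.05 in lens (adjusted p for the share = 6.68e-10). Stx3 transcript ENSMUST00000069285 was at 18.0 to 32.5 FPKM in lens and at 0.31, 0 and 0 in whole embryos, a share of 40.1% to 61.6% against 0.938% ± 1.62 (adjusted p = 1.03e-06). The Rps19 variant near ENSMUST00000129847 held 50.0% to 53.6% in lens and 5.35% ± 5.82 in whole embryos (adjusted p = 0.000128; SD, n = 3).

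The 5 members with a lower main share in lens were Pax6, Mfge8, Rpl29, Tpd52 and Six3. Pax6 transcript ENSMUST00000111083 held 17.7% to 25.4% of the gene in the lens stage means and 38.3% ± 2.75 in whole embryos (adjusted p = 0.000657). Mfge8 transcript ENSMUST00000107409 held 58.6% to 65.2% in lens and 83.9% ± 2.72 in whole embryos (adjusted p = 0.000101). The difference in log2 share, lens minus whole embryo, was -1.20 ± 0.196 for Pax6 and -1.51 ± 0.194 for Mfge8 (SE). The shares of Tpd52 and Rpl29 were likewise lower (adjusted p = 6.82e-05 and 0.00360), and the Six3 difference (adjusted p = 0.0235) was lost without WholeBody replicate 2 or 3 (adjusted p = 0.0649 and 0.162). Etv1, Gata3 and Dmrta2 did not pass this test, with differences of 0.00 ± 0.167, 0.25 ± 0.484 and 0.09 ± 0.235 on the log2 scale (SE).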

How the data were processed

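The authors deposited 1 table of FPKM values for 48306 assembled transcripts in 15 libraries, with the length of each transcript. Per the submitters' processing notes, Trimmomatic, TopHat2 2.0.9, Cufflinks and Cuffnorm were used on genome build mm10. The depth is unknown, so no interval that needs it is given. Gene values are sums of deposited FPKM per symbol without 172 transcripts that the assembler classed as x (exon overlap with a gene on the opposite strand). The members, lists and tests were chosen with earlier results of these data known. Genes were named by list membership, level, ratio, distance to a threshold and lowest adjusted p. Shares were tested with limma 3.58.1 (R 4.3.3, eBayes with trend, pseudocount 1) on all 15 libraries, which was tested on simulated data. Replicate numbers were not used as pairs. Coordinates and neighbours are from GENCODE vM21, matched for 77 members (75 by the same symbol). Python 3.11.15, pandas 2.3.3, numpy 2.4.6 and matplotlib 3.10.9 were used. Values of a few genes and 1 promoter are not reported here. Alternatives covered 3 rescalings, thresholds, pseudocounts, filters, a replicate block and leaving out each library.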

Additional observations from a re-analysis of the deposited data

Results flagged for a closer look

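Transcripts of class x were left out of the gene sums, and those at 2 members had values above whole embryos. At Hmx1, 2 such transcripts, of 3622 and 3203 bases, summed to 9.71, 6.86 and 6.23 FPKM in the E10.5 libraries, 29.3, 46.5 and 40.4 in those of E12.5, 48.9, 37.8 and 44.9 in those of E14.5 and 64.8, 44.6 and 49.1 in those of E16.5, against 0.63, 0.52 and 0.39 in whole embryos. The E16.5 mean was 52.8 ± 10.6 FPKM (SD, n = 3), 6.95 times the E10.5 mean, while the Hmx1 sum itself changed by 1.31 times. All E10.5 libraries lay below all later lens libraries. At Stx3, 1 such transcript of 5505 bases was at 1.34 ± 0.0681 FPKM (E10.5), then 3.78 ± 1.18 (E12.5), 7.90 ± 1.64 (E14.5) and finally 5.86 ± 0.847 (E16.5), against 0.503 ± 0.186. These differences were not tested, and without a stated strand protocol reads from both strands cannot be told apart.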

How the results depend on the processing

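The number of members was 77. It was 43 with a stage limit of 1.5, 149 at 2 times whole embryo and 28 at 4 times, and 70 to 82 without single libraries, with 54 genes kept in all of these. After removing crystallins and equalising totals it was 64 (49 shared), after quantile normalization 100 (61 shared), with median-of-ratios factors 77 (74 shared), and with main transcripts only 110 (49 shared). The order of E16.5 and E10.5 under each rescaling is given in the report, and 8 of the 10 transcription factors stayed under 2 times between stages with crystallins left out (not Mab21l1 and Myb), and 8 after quantile normalization (not Mab21l1 and Pax6). The cause was not tested.

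The share test over lens stages called 951 genes, 620 with the 12 lens libraries only, and 630 to 882 without single libraries, lowest without E10.5 replicate 1 (630) or 2 (631). It called 7 to 10 members without single libraries. The test against whole embryos called 1463 to 2133 genes and 22 to 26 members there. Fewer libraries leave fewer residual degrees of freedom. Akr1e1 and Ppm1h turned direction with a pseudocount of 0.1 (-0.48 and -0.71) and with an offset of 0.005 in the share, chosen after seeing the data (-1.19 and -2.10). The same offset called 23 members against whole embryos, 21 of them in the same direction as before, and 7 over the stages. The Rpl7a stage call was lost with both (adjusted p = 0.0676 and 0.0633), the range over its alternatives being 0.00864 to 0.0676. The Ttc7 call against whole embryos was lost in several settings (adjusted p up to 0.216). Matching replicate numbers correlated with r from -0.09 to 0.23 over 30 pairs, 3 of them over 0.1. Numbers that do not match were not compared, so whether a number marks a shared batch was not tested. A replicate block called 756 genes over the stages and 1973 against whole embryos, with 8 and 25 members. Unknown depth limits what can be said of transcripts listed at 0.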
